A study of Homo sapiens with 12 samples.

Results

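The genes described here are VCP, which encodes the ATPase p97, 5 genes of its listed cofactors (NPLOC4, UFD1, NSFL1C, FAF1 and FAF2) and 4 genes of the AN1-type zinc finger family (ZFAND1, ZFAND2A, ZFAND2B and ZFAND5). They were taken by name and mapped from symbol to Ensembl identifier. Earlier results of these data were known when they were chosen. All 10 were found among the 57773 genes of the count files, and all 10 were among the 14714 genes with enough counts to test. Levels were measured in T47D, a hormone receptor-positive breast carcinoma cell line, carrying an inducible hairpin against PSMD2, a subunit of the 19S cap that admits substrates to the proteasome. Lo19S cells had the hairpin induced with doxycycline at 0.2 µg/ml for 3 days, and in control cells the hairpin was present but not induced. The protocol then gives 24 h in medium without doxycycline. The 4 groups were Lo19S cells with 20 nM bortezomib, an inhibitor of the proteolytic core of the proteasome, control cells with 20 nM bortezomib, Lo19S cells with the solvent DMSO, and control cells with DMSO, each after 16 h and each with 3 libraries of polyadenylated RNA. Doxycycline and the hairpin were given together in both Lo19S groups, so their effects cannot be told apart.

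p97 is a hexameric ATPase that pulls ubiquitin-tagged proteins out of membranes, complexes and chromatin and hands them, unfolded, to the proteasome. It works through cofactors. NPLOC4 and UFD1 form the heterodimer that recognises ubiquitin chains on substrates, including proteins leaving the endoplasmic reticulum for degradation, while NSFL1C (p47), FAF1 and FAF2 bind p97 through a UBX domain. ZFAND proteins carry AN1 zinc fingers, and several of them contact p97, ubiquitin or the proteasome and are known for roles under arsenite or other proteotoxic stress.

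Promoter windows are given for 3 of these genes because their transcripts behaved differently in the data below. VCP had the highest level per length in control cells with DMSO, and ZFAND2A and ZFAND5 had the largest bortezomib responses of the 10. Each window covers 250 bases before to 50 bases after a RefSeq start, on the strand of the gene, in build GRCh38.p14. Capitals mark matches to TGACNNNGC or GCNNNGTCA, the core of the antioxidant response element that NRF factors bind, and to GAANNTTC or TTCNNGAA, the paired unit of the heat shock element bound by HSF1. The windows are chr9:35072576-35072875 (minus strand) for VCP, chr7:1160147-1160446 (minus strand) for ZFAND2A and chr9:72365159-72365458 (minus strand) for ZFAND5, which is 1 of its 3 listed starts.
VCP: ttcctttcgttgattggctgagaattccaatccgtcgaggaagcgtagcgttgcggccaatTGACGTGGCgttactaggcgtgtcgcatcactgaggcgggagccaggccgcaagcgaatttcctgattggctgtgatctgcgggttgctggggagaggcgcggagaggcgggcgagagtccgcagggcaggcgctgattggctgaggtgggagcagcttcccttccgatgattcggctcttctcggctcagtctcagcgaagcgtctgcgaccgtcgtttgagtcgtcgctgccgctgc
ZFAND2A: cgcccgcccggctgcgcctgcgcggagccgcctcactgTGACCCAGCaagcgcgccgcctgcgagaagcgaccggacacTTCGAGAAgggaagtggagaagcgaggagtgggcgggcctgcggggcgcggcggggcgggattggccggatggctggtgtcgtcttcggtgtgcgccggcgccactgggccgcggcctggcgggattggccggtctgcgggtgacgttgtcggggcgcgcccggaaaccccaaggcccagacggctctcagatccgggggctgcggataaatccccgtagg
ZFAND5: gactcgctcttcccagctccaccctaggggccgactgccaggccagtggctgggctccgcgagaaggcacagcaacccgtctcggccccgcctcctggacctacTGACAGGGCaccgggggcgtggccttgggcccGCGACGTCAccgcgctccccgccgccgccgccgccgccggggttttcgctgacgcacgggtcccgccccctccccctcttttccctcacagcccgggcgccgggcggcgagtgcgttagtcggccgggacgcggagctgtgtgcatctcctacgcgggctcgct
The VCP window held TGACGTGGC at position -189 from the start. The ZFAND2A window held TGACCCAGC at -212 and TTCGAGAA at -171. The ZFAND5 window held TGACAGGGC at -146 and GCGACGTCA at -114, and the windows of its other starts held no match to any of the motifs searched. RefSeq windows were matched for 8 of the 10 genes, with 11 windows in all, and UFD1 and ZFAND1 were not matched. Of these 8 genes, 4 (FAF2, VCP, ZFAND2A and ZFAND5) had a match to the antioxidant core, against 16.1% of 27305 genes with a window. The paired heat shock unit was found for 3 (FAF1, FAF2 and ZFAND2A), against 16.2% of genes. The longer heat shock element, in which the paired unit is followed by a further inverted unit at the same spacing, was found for 0 of the 8, against 0.608% of genes. Each motif was searched on both strands, and the longer element contains the paired unit. Matches are letters in these windows and were not tested for binding.

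The files hold read counts per gene, with totals of 7376597 to 15003480 counts per library. Levels below are CPM, counts relative to library size, scaled with TMM factors. These factors leave out genes with extreme ratios or levels and take the rest to be mostly unchanged between libraries. PSMD2 was at 541, 546 and 539.6 CPM in Lo19S cells and at 1509, 1510 and 1528 CPM in control cells with bortezomib, and at 183, 189 and 184 CPM in Lo19S cells and at 408, 392 and 417 CPM in control cells with DMSO, so that the target was lower in every Lo19S library than in every control library of the same agent. The 7 luminal markers checked summed to 2552 to 2708 CPM in Lo19S cells and 2578 to 2658 CPM in control cells with bortezomib, and to 5329 to 5402 CPM in Lo19S cells and 6118 to 6235 CPM in control cells with DMSO. Single luminal markers differed more than their sum: under bortezomib GATA3 was 2.30-fold and PGR 2.28-fold higher in Lo19S than in control cells, and of the 7 markers 5 were called higher and 2, KRT8 and KRT18, lower. With bortezomib KRT18 was called higher and the other 6 lower in each state. The 4 fibroblast markers, nearly all COL1A1, summed to 40.2 to 43.2 CPM in Lo19S cells and 61.8 to 68.0 CPM in control cells with bortezomib, and to 28.8 to 29.3 CPM in Lo19S cells and 24.7 to 30.1 CPM in control cells with DMSO. Both sums move with the groups, and their part in the results was not tested. The leukocyte and endothelial markers summed to at most 0.439 and 0.321 CPM, with CD3E at 0 in every library. The endothelial marker PECAM1 was not found in the count files, so the endothelial sum covers VWF and CDH5 alone. In bulk RNA a change in some of the cells and a smaller change in all of them cannot be told apart. Control DMSO replicate 3 stood apart: its counts differed from those of its replicates with a chi-square of 3.98 and 4.36 times its degrees of freedom, where every other replicate pair lay between 1.16 and 2.01. The 10 genes had between 47 and 13587 counts in a library, and their coefficient of variation within a group ranged from 0.418% to 15.6% with a median of 3.21%. No label states that the 3 libraries of a group are from separate cultures, and p-values here describe the spread among these libraries alone, which may be technical. Scaling to plain library totals moved the median log2 fold change of all genes to -0.31 for bortezomib in Lo19S cells and -0.42 in control cells, where TMM gave -0.02 and -0.04, and to 0.11 for Lo19S against control under bortezomib. With it the split of higher and lower calls was 3731 and 7918 instead of 5561 and 5847 for bortezomib in Lo19S cells, 3717 and 8452 instead of 5761 and 6215 in control cells, 4920 and 1883 instead of 3230 and 3119 for Lo19S against control under bortezomib, and 3331 and 1257 instead of 2126 and 1968 for the difference of responses. Changes below are relative to the TMM scale.

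**Figure D1:**
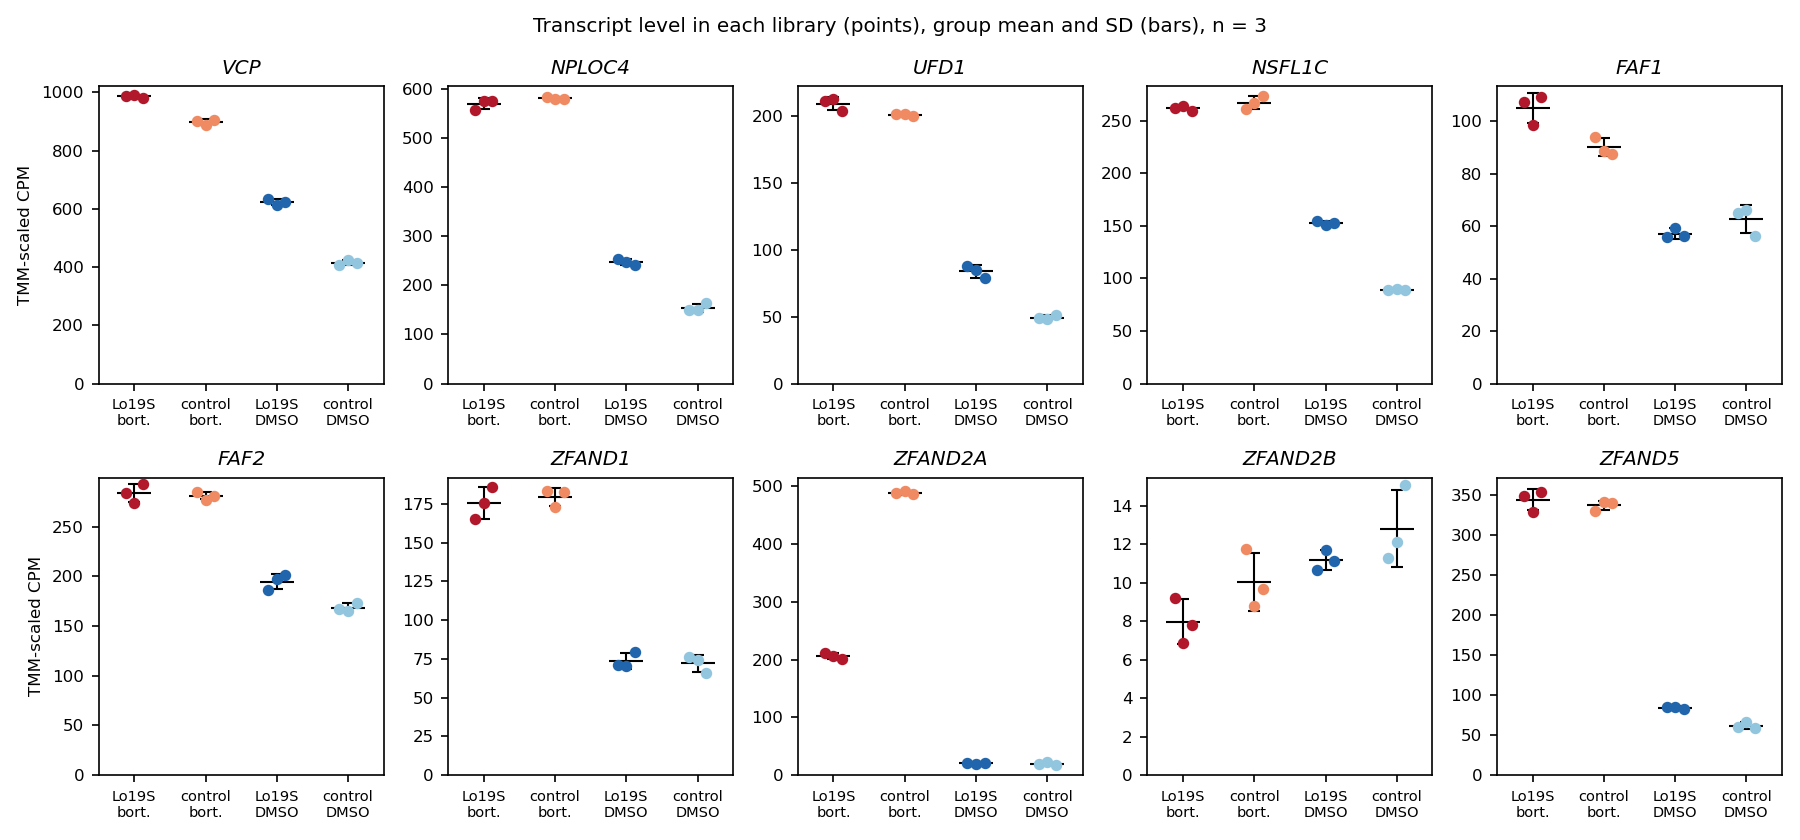
TMM-scaled CPM (vertical axes, each from 0) of the 10 genes in each of the 12 libraries, with points for libraries and bars for the group mean and SD over 3 libraries. VCP, NPLOC4, UFD1 and NSFL1C stepped up between the DMSO groups, and NPLOC4, UFD1 and NSFL1C reached similar levels in both bortezomib groups. With bortezomib VCP averaged 987 CPM in Lo19S cells and 897 CPM in control cells, and ZFAND2A averaged 206 CPM in Lo19S cells and 489 CPM in control cells.

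The first question was how p97 and its partners stand when PSMD2 is lowered and no inhibitor is present, which the DMSO groups address. VCP, both partners of the ubiquitin-binding heterodimer and NSFL1C were higher in Lo19S cells, by up to 1.71-fold, and ZFAND5 and FAF2 were higher by smaller steps. In all, 6 of the 10 genes rose and 0 fell at an adjusted p below 0.05 in edgeR's quasi-likelihood test with Benjamini-Hochberg adjustment over all genes tested. Of all genes tested 24.7% were called, 11.7% higher and 13.0% lower. The median log2 fold change was 0.33 over the 10 genes and -0.0043 over all genes.

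VCP, the ATPase itself, was at 633, 614 and 623 CPM in Lo19S cells, against 407, 425 and 414 CPM in control cells. The groups did not overlap. The log2 fold change was 0.59 (SE 0.032, adjusted p = 3.67e-20), which placed VCP at rank 640 of 14714 from the highest. NPLOC4, the larger subunit of the substrate-recruiting heterodimer, was at 255, 247 and 241 CPM in Lo19S cells and at 149.6, 149 and 163 CPM in control cells, with control DMSO replicate 3 the highest of its group. Its partner UFD1 was at 88.0, 84.8 and 78.7 CPM in Lo19S cells and at 48.6, 48.0 and 51.0 CPM in control cells. Both were higher in every Lo19S library, with log2 fold changes of 0.69 (SE 0.039, adjusted p = 9.99e-20) for NPLOC4 and 0.77 (SE 0.052, adjusted p = 6.91e-17) for UFD1.

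Of the 3 UBX cofactors, NSFL1C moved most. NSFL1C, a cofactor best known from membrane fusion at the Golgi and endoplasmic reticulum, was at 155, 151 and 153 CPM in Lo19S cells, against 88.8, 90.4 and 89.0 CPM in control cells (log2 0.77, SE 0.042, adjusted p = 1.73e-20). FAF2, which anchors p97 to the endoplasmic reticulum and lipid droplets, was at 186, 197 and 201 CPM in Lo19S cells and at 167, 165 and 173 CPM in control cells. That difference was small but clear of the spread (log2 0.21, SE 0.040, adjusted p = 6.15e-05). FAF1, a UBX cofactor that also binds ubiquitin and the death receptor FAS, was at 55.7, 59.4 and 56.3 CPM in Lo19S cells and at 65.2, 66.3 and 56.4 CPM in control cells. These groups overlapped through control DMSO replicate 3, and FAF1 did not pass the test (log2 -0.13, 95% interval -0.25 to -0.02 before adjustment, adjusted p = 0.0943). Without that library it was called lower (log2 -0.20, adjusted p = 0.00148).

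Of ZFAND1, ZFAND2A, ZFAND2B and ZFAND5, only ZFAND5 passed the test under DMSO. ZFAND5 (ZNF216), which binds ubiquitin and the proteasome and in mice takes part in muscle atrophy, was at 85.3, 85.5 and 81.8 CPM in Lo19S cells and at 59.4, 66.7 and 59.0 CPM in control cells, with no overlap (log2 0.45, SE 0.051, adjusted p = 6.61e-10). ZFAND2A (AIRAP), an arsenite-inducible protein that associates with the 19S cap, averaged 20.7 ± 0.949 CPM in Lo19S cells and 19.5 ± 2.21 CPM in control cells (SD, n = 3 each), and the interval of its log2 fold change ran from -0.06 to 0.24 (adjusted p = 0.452 in edgeR). ZFAND1, which in yeast and human cells helps clear arsenite-induced stress granules, averaged 73.5 ± 4.99 CPM in Lo19S cells and 72.0 ± 5.59 CPM in control cells, with an interval of -0.09 to 0.14. ZFAND2B (AIRAPL), a membrane-associated relative of ZFAND2A, averaged 11.2 ± 0.515 CPM in Lo19S cells and 12.8 ± 1.99 CPM in control cells, with an interval of -0.42 to 0.04. The last 3 genes thus differed by less than the test could call.

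**Figure D2:**
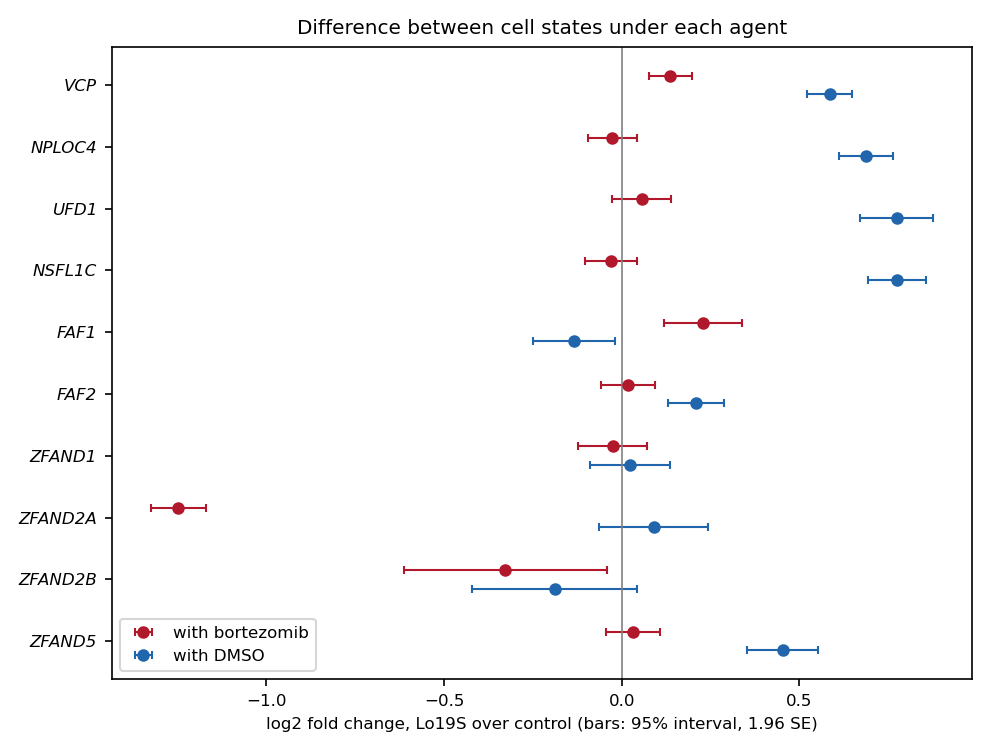
Log2 fold change of Lo19S over control cells (horizontal axis) for each of the 10 genes (vertical axis), with bortezomib in red and with DMSO in blue, and bars for 95% intervals. The red points of NPLOC4, UFD1, NSFL1C, FAF2, ZFAND1 and ZFAND5 lie between -0.03 and 0.06, and that of ZFAND2A lies at -1.25.

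The next comparison, bortezomib over DMSO in control cells, addresses how the same genes respond to inhibition of the proteolytic core where the hairpin is not induced. Of the 10 genes 9 rose and 1, ZFAND2B, fell, where 81.4% of all genes tested were called, 39.2% higher and 42.2% lower. The median log2 fold change was 1.45 over the 10 genes and -0.04 over all genes. The rises ranged from 1.44-fold for FAF1 to 25.1-fold for ZFAND2A.

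ZFAND2A rose most. Its libraries were at 489, 492 and 486 CPM in control cells with bortezomib, against 18.5, 22.1 and 18.0 CPM with DMSO (log2 4.65, SE 0.053, adjusted p = 2.71e-50), and its rank was 95 of 14714 from the highest. ZFAND5 was at 329.8, 341 and 339 CPM with bortezomib, against 59.4, 66.7 and 59.0 CPM with DMSO (5.46-fold, log2 2.45, SE 0.046, adjusted p = 2.97e-41). ZFAND1 was at 183, 173 and 183 CPM with bortezomib, against 76.1, 74.2 and 65.6 CPM with DMSO (log2 1.31, SE 0.053, adjusted p = 7.27e-26). In these 3 genes every bortezomib library was above every DMSO library. ZFAND2B went the other way, at 11.7, 8.80 and 9.65 CPM with bortezomib and at 11.3, 12.1 and 15.1 CPM with DMSO. Its groups overlapped, and the call (log2 -0.34, SE 0.129, adjusted p = 0.0134) was lost without control DMSO replicate 3 (-0.22, adjusted p = 0.124), without control bortezomib replicate 2 (-0.25, adjusted p = 0.111) and with DESeq2 (-0.33, adjusted p = 0.0527).

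The heterodimer rose more than the ATPase it serves. UFD1 was at 201, 201 and 199.8 CPM with bortezomib, against 48.6, 48.0 and 51.0 CPM with DMSO (4.08-fold, log2 2.03, SE 0.049, adjusted p = 1.23e-36). NPLOC4 was at 584, 579 and 579 CPM with bortezomib, against 149.6, 149 and 163 CPM with DMSO (3.77-fold, log2 1.91, SE 0.038, adjusted p = 3.86e-40). VCP was at 900.3, 887 and 905 CPM with bortezomib, against 407, 425 and 414 CPM with DMSO (2.16-fold, log2 1.11, SE 0.032, adjusted p = 3.46e-33). NSFL1C lay between them, at 262, 267 and 274 CPM with bortezomib, against 88.8, 90.4 and 89.0 CPM with DMSO (2.99-fold, log2 1.58, SE 0.041). FAF2 averaged 281 ± 3.61 CPM with bortezomib and 168 ± 4.52 CPM with DMSO (log2 0.74, SE 0.040), and FAF1 averaged 90.1 ± 3.38 CPM with bortezomib and 62.6 ± 5.42 CPM with DMSO (log2 0.52, SE 0.058). With library totals as the scale all 9 rises were still called, but the log2 values were lower, 0.73 for VCP, 0.36 for FAF2 and 0.14 for FAF1.

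The same comparison was made in Lo19S cells, in which PSMD2 was already lower. Again 9 of the 10 genes rose and ZFAND2B fell, where 77.5% of all genes were called, 37.8% higher and 39.7% lower, and the median log2 fold change was 1.04 over the 10 genes and -0.02 over all genes. ZFAND2A was at 211, 205 and 202 CPM with bortezomib, against 21.6, 19.7 and 20.8 CPM with DMSO (9.93-fold, log2 3.31, SE 0.056, adjusted p = 1.03e-42). ZFAND5 was at 348, 328 and 353 CPM with bortezomib, against 85.3, 85.5 and 81.8 CPM with DMSO (4.08-fold, log2 2.03, SE 0.044), and ZFAND1 at 165, 176 and 186 CPM with bortezomib, against 70.7, 70.7 and 79.3 CPM with DMSO (log2 1.27, SE 0.053). None of these groups overlapped. VCP was at 989, 991 and 980.1 CPM with bortezomib, against 633, 614 and 623 CPM with DMSO (1.58-fold, log2 0.66, SE 0.032). NPLOC4 was at 557, 576 and 576 CPM with bortezomib, against 255, 247 and 241 CPM with DMSO (log2 1.20, SE 0.036), and UFD1 at 211, 213 and 204 CPM with bortezomib, against 88.0, 84.8 and 78.7 CPM with DMSO (log2 1.31, SE 0.045). NSFL1C changed by 0.78 (SE 0.038), FAF1 by 0.88 (SE 0.057), FAF2 by 0.55 (SE 0.039) and ZFAND2B by -0.48 (SE 0.136, adjusted p = 0.00135), all as log2 fold changes. With library totals the 9 rises and the fall were still called, but VCP was at 0.37, NSFL1C at 0.49, FAF2 at 0.26, FAF1 at 0.60 and ZFAND2B at -0.77. The lowest ZFAND2B library here held 47 counts, so its values are the least precise of the 10 genes.

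The bortezomib responses of the 2 cell states were then compared directly, as the difference of their log2 fold changes, Lo19S minus control. In 7 of the 10 genes the response was smaller in Lo19S cells, in 1, FAF1, it was larger, and ZFAND1 and ZFAND2B did not pass the test. Of all genes tested 27.8% were called, 13.4% lower and 14.4% higher, in this comparison, and the median difference was -0.43 over the 10 genes and 0.01 over all genes. ZFAND2A differed most, with a response of 3.31 in Lo19S cells against 4.65 in control cells, a difference of -1.34 (SE 0.088, adjusted p = 5.54e-17). NSFL1C had a response of 0.78 in Lo19S cells against 1.58 in control cells, a difference of -0.80 (SE 0.056, adjusted p = 3.73e-16). UFD1 and NPLOC4 differed by nearly the same amount, -0.72 (SE 0.067, adjusted p = 4.51e-12) and -0.71 (SE 0.052, adjusted p = 1.97e-15), VCP by -0.45 (SE 0.045, adjusted p = 3.34e-11) and ZFAND5 by -0.42 (SE 0.064, adjusted p = 1.02e-06). FAF2 differed by -0.19 (SE 0.056, adjusted p = 0.00715), a call lost with library totals (-0.10, adjusted p = 0.187).

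FAF1 and ZFAND1 stood outside this pattern. FAF1 had a response of 0.88 in Lo19S cells against 0.52 in control cells, a difference of 0.36 (SE 0.082, adjusted p = 0.000527). ZFAND1 had responses of 1.27 in Lo19S cells and 1.31 in control cells, and the interval of the difference ran from -0.20 to 0.10. As a share of the log2 response of control cells, the response of Lo19S cells was 49.1% for NSFL1C, 59.6% for VCP, 62.8% for NPLOC4, 64.6% for UFD1, 71.2% for ZFAND2A, 74.1% for FAF2 and 82.8% for ZFAND5, on the TMM scale.

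**Figure D3:**
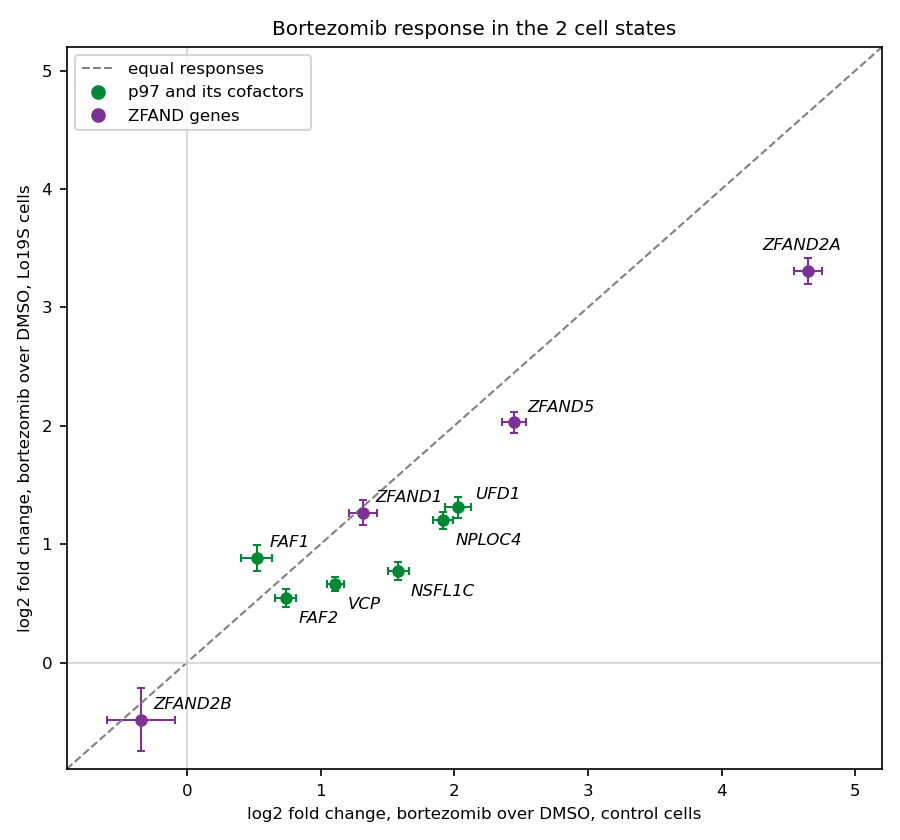
Log2 fold change of bortezomib over DMSO in Lo19S cells (vertical axis) against that in control cells (horizontal axis) for the 10 genes, with p97 and cofactors in green, ZFAND genes in purple, bars for 95% intervals and a dashed line of equal responses. ZFAND2A, NSFL1C, UFD1, NPLOC4, VCP, ZFAND5 and FAF2 lie below the line, FAF1 lies above it, and ZFAND1 and ZFAND2B lie close to it. Both axes share the scaling of all 12 libraries.

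Lo19S and control cells were last compared with bortezomib present, to ask where the transcripts ended up. Here 7 of the 10 genes did not pass the test, VCP and FAF1 were higher in Lo19S cells and ZFAND2A was lower. Missing the test does not mean a small difference, since ZFAND2B, among the 7, was at log2 -0.33. Of all genes tested 43.1% were called, 22.0% higher and 21.2% lower. The median log2 fold change was -0.005 over the 10 genes. VCP was at 989, 991 and 980.1 CPM in Lo19S cells and at 900.3, 887 and 905 CPM in control cells, which did not overlap (log2 0.14, SE 0.031, adjusted p = 0.00034). FAF1 was at 107, 98.5 and 109 CPM in Lo19S cells and at 93.9, 88.6 and 87.7 CPM in control cells (log2 0.23, SE 0.056, adjusted p = 0.000724). ZFAND2A was at 211, 205 and 202 CPM in Lo19S cells and at 489, 492 and 486 CPM in control cells, so that every Lo19S library was lower (log2 -1.25, SE 0.040, adjusted p = 6.48e-30), which was rank 186 of 14714 from the lowest.

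For the genes that did not pass, the unadjusted intervals describe the spread among these libraries on this scale. The log2 fold change was -0.03 for NPLOC4 (interval -0.10 to 0.04, adjusted p = 0.569), 0.06 for UFD1 (-0.03 to 0.14, adjusted p = 0.297) and -0.03 for NSFL1C (-0.10 to 0.04, adjusted p = 0.545). For NPLOC4 and UFD1 the libraries of the 2 states did not overlap even so. The intervals were -0.06 to 0.09 for FAF2, -0.12 to 0.07 for ZFAND1 and -0.04 to 0.11 for ZFAND5. ZFAND2B was at 9.20, 6.88 and 7.79 CPM in Lo19S cells and at 11.7, 8.80 and 9.65 CPM in control cells (log2 -0.33, SE 0.146, adjusted p = 0.0649), and it was called lower without control DMSO replicate 3 (adjusted p = 0.0408), control bortezomib replicate 2 (0.0378) or Lo19S bortezomib replicate 1 (0.0353). This comparison leans on the scaling: with library totals 6 of the 10 genes were called higher, where 33.4% of all genes were called higher and 12.8% lower on that scale, and NPLOC4, NSFL1C and ZFAND1 changed sign to 0.084, 0.080 and 0.085.

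In order of group means, VCP, UFD1, FAF2 and ZFAND5 were lowest in control cells with DMSO, then Lo19S cells with DMSO, then control cells with bortezomib, and highest in Lo19S cells with bortezomib. NPLOC4, NSFL1C, ZFAND1 and ZFAND2A had the same lower steps but were highest in control cells with bortezomib. FAF1 was lowest in Lo19S cells with DMSO and highest in Lo19S cells with bortezomib. The libraries of the bortezomib groups overlapped for NSFL1C, FAF2, ZFAND1 and ZFAND5, and those of the DMSO groups for FAF1, ZFAND1 and ZFAND2A. For ZFAND2B the order was reversed, with control cells with DMSO highest, and each neighbouring pair of groups overlapped. Summed over the 4 ZFAND genes the level was 733 ± 16.0 CPM in Lo19S cells and 1015 ± 2.03 CPM in control cells with bortezomib, and 189.6 ± 2.98 CPM in Lo19S cells and 166 ± 8.72 CPM in control cells with DMSO. NPLOC4 plus UFD1 summed to 779 ± 10.3 CPM in Lo19S cells and 781 ± 3.36 CPM in control cells with bortezomib, and to 331 ± 11.6 CPM in Lo19S cells and 203 ± 9.54 CPM in control cells with DMSO.

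Levels of different genes were compared per kilobase of the union of their exons in GENCODE release 29, which is another annotation than the one counted, so these values are approximate. In control cells with DMSO, VCP had the highest level, 76.4 CPM per kilobase, followed by FAF2 at 28.3, ZFAND1 at 17.1, NPLOC4 at 16.1 and NSFL1C at 13.7, and ZFAND2B had the lowest at 3.77 CPM per kilobase. In Lo19S cells with bortezomib VCP had the highest level, 181 CPM per kilobase, and ZFAND2A was at 90.4. In control cells with bortezomib ZFAND2A had the highest level, 214 CPM per kilobase, above VCP at 165 CPM per kilobase. With the longest protein-coding transcript as the length, the order below VCP changed in control cells with DMSO, to ZFAND1 at 40.0, FAF2 at 37.3, NPLOC4 at 27.8, UFD1 at 27.1 and NSFL1C at 25.1 CPM per kilobase, and ZFAND2B was again lowest at 6.34. On that length ZFAND2A was again below VCP in Lo19S cells with bortezomib, at 213 against 226 CPM per kilobase, and again above it in control cells, at 505 against 205.

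Because p97 and its cofactors act as complexes, the count of each cofactor was also set against that of VCP within each library, a ratio that library scaling cannot move. The ratios are not per length, so their size is read across groups and not across genes. Relative to VCP, UFD1 was at a log2 ratio of -2.24 ± 0.024 in Lo19S cells and -2.16 ± 0.021 in control cells with bortezomib, and at -2.90 ± 0.077 in Lo19S cells and -3.08 ± 0.065 in control cells with DMSO (SD, n = 3 each). NPLOC4 was at -0.79 ± 0.032 in Lo19S cells and -0.63 ± 0.015 in control cells with bortezomib, and at -1.33 ± 0.033 in Lo19S cells and -1.43 ± 0.085 in control cells with DMSO. Both partners of the heterodimer thus gained on VCP with bortezomib, by 0.66 and 0.54 log2 units in Lo19S cells and by 0.92 and 0.80 in control cells. In each of these 4 contrasts the libraries did not overlap, and the exact permutation test gave p = 0.1, the smallest that 3 against 3 libraries allow (two-sided, 0.109 after adjustment over the 36 ratio comparisons made).

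NSFL1C gained less on VCP, by 0.11 log2 units with bortezomib in Lo19S cells and by 0.47 in control cells. FAF1 and FAF2 lost ground to VCP in control cells given bortezomib, by -0.58 and -0.37 log2 units, and in Lo19S cells under DMSO against control cells, by -0.71 and -0.38. In Lo19S cells given bortezomib FAF1 regained 0.21 units against VCP, and FAF2 changed by -0.12 (exact permutation p = 0.2). ZFAND2A gained 2.65 units on VCP in Lo19S cells and 3.54 in control cells. The design of 3 against 3 cannot reach an exact p of 0.05 for any of these ratios, which also share the VCP counts.

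**Figure D4:**
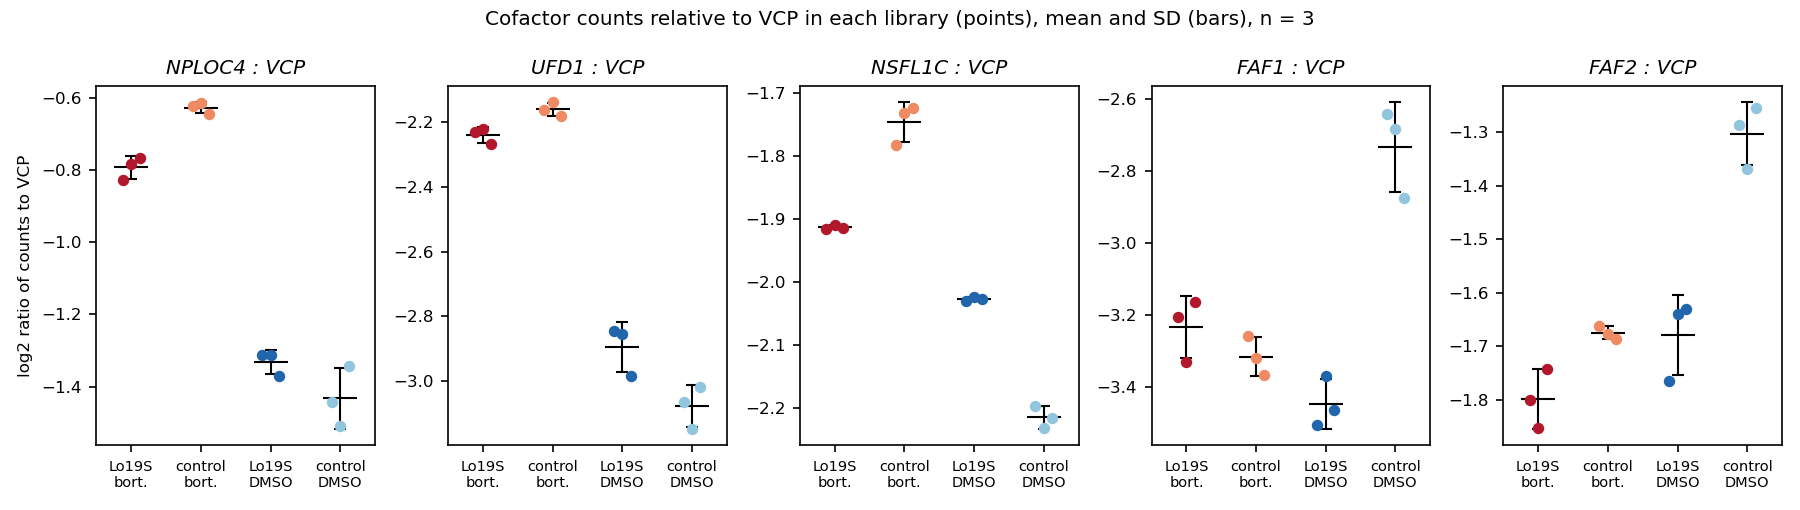
Log2 ratio of the counts of 5 cofactors to those of VCP (vertical axes, which do not start at 0) in each library, with points for the 12 libraries and bars for the group mean and SD over 3 libraries. NPLOC4 and UFD1 lie higher in both bortezomib groups than in both DMSO groups, and FAF1 and FAF2 lie highest in control cells with DMSO.

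Other genes of the p97 system were examined as lists. Of 10 further UBX-domain cofactors, 9 had enough counts to test, UBXN10 being the exception. With bortezomib 8 of the 9 rose and 0 fell in Lo19S cells, and the same counts held in control cells, with median log2 fold changes of 0.40 and 0.54. Of all genes 37.8% were called higher in Lo19S cells and 39.2% in control cells, and these shares apply to the lists that follow. UBXN4, an endoplasmic reticulum membrane cofactor, rose most, by 0.88 (SE 0.038) in Lo19S cells and 1.02 (SE 0.039) in control cells, and UBXN2B did not pass in either state. With library totals these counts were 4 higher and 1 lower in Lo19S cells and 5 higher and 1 lower in control cells. Under DMSO 4 of the 9 were higher in Lo19S cells and 0 lower (median 0.07), where 11.7% of all genes were called higher and 13.0% lower, with UBXN4 again the largest at 0.36 (SE 0.039, adjusted p = 2.64e-10). Under bortezomib UBXN4 was higher (0.22) and UBXN7 lower (-0.13) in Lo19S cells, where 22.0% and 21.2% of all genes were called. With library totals 4 of the 9 were higher and 0 lower, where 33.4% and 12.8% of all genes were. The difference of responses was called lower for UBXN4 alone (-0.14, SE 0.054, adjusted p = 0.0411), where 13.4% of all genes were. That count was 3 with median-of-ratios factors in place of TMM and 0 with library totals.

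The second list held 16 other proteins that bind p97, among them deubiquitinases, ubiquitin ligases and endoplasmic reticulum membrane partners. With bortezomib 13 rose and 2 fell in Lo19S cells (median 0.59), and 14 rose and 2 fell in control cells (median 0.86). With library totals these were 12 and 2 in both states. YOD1, a deubiquitinase that trims p97 substrates, rose most, reaching 64.5 CPM in Lo19S cells against 15.2 CPM with DMSO, and 122 CPM in control cells against 14.8 CPM with DMSO. Its responses of 2.09 (SE 0.070) in Lo19S cells and 3.04 (SE 0.065) in control cells differed by -0.95 (SE 0.103, adjusted p = 3.43e-10), and it was lower in Lo19S cells under bortezomib (-0.92, SE 0.053), the same direction as ZFAND2A. SVIP, a small inhibitor of p97 in endoplasmic reticulum degradation, fell most, by -0.69 (SE 0.069) in Lo19S cells and -1.07 (SE 0.070) in control cells. In all, the difference of responses was called lower for 6 and higher for 2 of the 16, against 13.4% and 14.4% of all genes, or 4 and 2 with library totals.

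Under DMSO 3 of these 16 were higher and 1 lower in Lo19S cells, against 11.7% and 13.0% of all genes. UBE4B, a ubiquitin chain elongation factor that works with p97, was at 112 CPM in Lo19S cells and 67.0 CPM in control cells (log2 0.75, SE 0.053, adjusted p = 3.06e-16), and SVIP was the one that fell (-0.21, SE 0.061, adjusted p = 0.00826). Under bortezomib 5 were higher and 5 lower in Lo19S cells, against 22.0% and 21.2% of all genes, with UBE4B (0.33) and YOD1 at the ends, or 7 and 4 with library totals. The 3 remaining ZFAND genes, ZFAND3, ZFAND4 and ZFAND6, had smaller log2 responses to bortezomib than ZFAND2A or ZFAND5 in both states. With bortezomib 3 rose in Lo19S cells (median 0.46) and 2 in control cells (median 0.36), ZFAND3 the most in both (0.94 and 1.02), and with library totals the median in control cells was -0.03, with 1 higher and 1 lower. Under DMSO ZFAND3 was higher in Lo19S cells (0.14, SE 0.051, adjusted p = 0.0303), and under bortezomib ZFAND6 was (0.16, SE 0.065, adjusted p = 0.0354).

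A list of 17 subunits of the 19S cap other than PSMD2, which leaves out the small subunit SEM1, was used for comparison. Of these 17, 16 were higher in Lo19S cells under DMSO (median 0.61), against 11.7% of all genes. With bortezomib 16 were higher in each state (medians 0.78 in Lo19S and 1.25 in control cells), against 37.8% and 39.2%. The difference of responses was called lower for 15 (median -0.51), against 13.4%. These medians had the same signs as the values of VCP, NPLOC4, UFD1 and NSFL1C. Under bortezomib 6 were higher and 2 lower in Lo19S cells (median 0.08), against 22.0% and 21.2% of all genes, or 13 and 0 with library totals. Comparisons that share libraries are not independent, so these values stand side by side without a test.

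**Figure D5:**
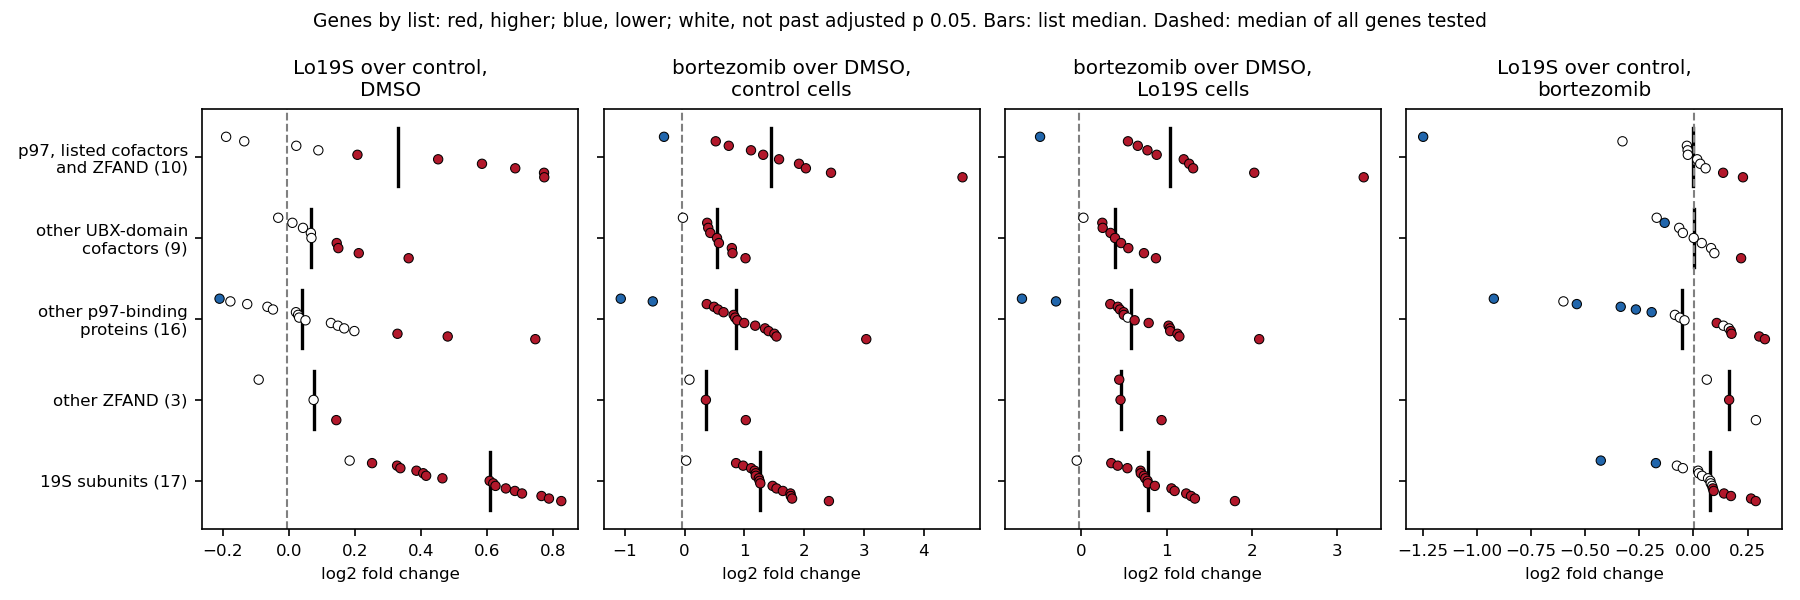
Log2 fold change (horizontal axes) of each tested gene of 5 lists in the 4 pairwise comparisons, with red for higher, blue for lower and white for genes not past an adjusted p of 0.05, solid bars for list medians and dashed lines for the median of all 14714 genes. In the panels of bortezomib over DMSO nearly all points of the p97 lists lie right of the dashed line, with ZFAND2A and YOD1 farthest out. In these panels ZFAND2B and SVIP are among the few to the left.

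The genes with the most similar patterns were sought for VCP, ZFAND2A and ZFAND5, by the root-mean-square difference of mean-centred log2 CPM over the 12 libraries among 9616 genes with a mean of at least 10 CPM. Nearest to VCP were PSMA4, a subunit of the proteolytic core, at 0.0564, SEM1, a small subunit of the 19S cap, at 0.0592 and the 19S subunit PSMD11 at 0.0664, where the spread of VCP itself was 0.492. Nearest to ZFAND2A were PPP1R15A, a regulatory subunit of the eIF2 alpha phosphatase, at 0.0952, SAT1, a polyamine acetyltransferase, at 0.102 and the HSP40 co-chaperone gene DNAJA4 at 0.149, where the spread of ZFAND2A was 2.04. PPP1R15A averaged 189 CPM in Lo19S cells and 412 CPM in control cells with bortezomib, and 18.1 CPM in Lo19S cells and 16.7 CPM in control cells with DMSO. Nearest to ZFAND5 were VPS37A, a subunit of an endosomal sorting complex, at 0.0755, GLA, the lysosomal alpha-galactosidase, at 0.0892 and MSANTD3 at 0.0927, where the spread of ZFAND5 was 1.13. These are descriptions over 4 groups and carry no test.

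Reads of overlapping genes cannot be told apart where counting did not use strand, and the strand setting is not given in the sources used here. In GENCODE release 29 exons of ZFAND2A share 4.87% of their length with AC091729.3, an antisense gene with 88 to 267 counts per library, and ZFAND2A had 194 counts in its lowest library. AC091729.3 was at 14.3, 13.6 and 14.5 CPM in Lo19S cells and at 10.7, 10.8 and 11.8 CPM in control cells with bortezomib, and at 21.3, 22.0 and 21.8 CPM in Lo19S cells and at 15.9, 15.1 and 17.4 CPM in control cells with DMSO, which is the opposite direction to ZFAND2A with bortezomib. Exons of ZFAND1 share 5.93% of their length with CHMP4C on the opposite strand, which had 303 to 929 counts. CHMP4C was at 69.4, 66.1 and 67.0 CPM in Lo19S cells and at 85.5, 83.0 and 87.7 CPM in control cells with bortezomib, and at 30.4, 27.8 and 32.4 CPM in Lo19S cells and at 28.9, 30.5 and 30.0 CPM in control cells with DMSO, the same direction as ZFAND1 with bortezomib. The small levels of ZFAND2A under DMSO and the values of ZFAND1 are uncertain to that extent. Exons of NPLOC4, UFD1 and NSFL1C also share 0.376% to 7.53% of their length with other genes, none of which had more than 50 counts in a library.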

How the data were processed

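Polyadenylated RNA of 12 T47D libraries in 4 groups was analysed. The authors deposited raw counts of reads per gene, without normalization. STAR 2.5.4b, featureCounts 1.6.1 and build GRCh37 are named per the submitters' processing notes. How strand and multi-mapping reads were handled is not given in the sources used here. Per the labels' protocols the library kit was stranded.

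Counts passing filterByExpr by group (14714 of 57773 genes) were scaled with TMM factors and fitted with 1 coefficient per group over all 12 libraries. Tests used edgeR 4.0.16 (R 4.3.3) and its quasi-likelihood method with robust estimation, with Benjamini-Hochberg adjustment over all genes and calls below 0.05. SE is approximate, from dividing the size of the log2 fold change by the root of F, and 95% intervals are built from it without adjustment. Ratios to VCP used a pseudocount of 0.5 counts and two-sided exact permutation tests. The fit was tested on simulated data.

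Alternatives were median-of-ratios factors, library totals, 2 other filters, DESeq2 1.42.0, fits on the compared groups, a replicate block and leaving out each library, plus, added after seeing the data, another gene length. The 10 genes were all named. Of the other lists the largest rise and fall called and the counts were named, with a few added after their values were seen. ZFAND2A, ZFAND5 and VCP were fixed for the likeness search. Members, lists and tests were chosen with earlier results of these data known. Reads are not independent molecules. Coordinates come from RefSeq in GRCh38.p14, another build than that of the counts.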

Additional observations from a re-analysis of the deposited data

Results flagged for a closer look

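The bortezomib response differed between Lo19S and control cells for 8 of the 10 genes, by the test of the difference itself in edgeR, which called 27.8% of all genes (13.4% lower and 14.4% higher). The difference of log2 responses, Lo19S minus control, was -1.34 for ZFAND2A, -0.80 for NSFL1C, -0.72 for UFD1, -0.71 for NPLOC4, -0.45 for VCP, -0.42 for ZFAND5 and -0.19 for FAF2, and it was 0.36 for FAF1. The summed fibroblast markers, nearly all COL1A1, were at 40.2 to 43.2 CPM in Lo19S cells and 61.8 to 68.0 CPM in control cells with bortezomib. Their part in the differences was not tested.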

How the results depend on the processing

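Over 940 refits of a log2 fold change of one of the 10 genes, 918 kept direction and call. With the sign kept, 8 gained a call and 4 lost it, and 10 changed sign, none of the 10 from a value called with TMM scaling. Among these 10, NPLOC4 in Lo19S against control under bortezomib was called after the change, with library totals (0.084, adjusted p = 0.0456 in edgeR). The 940 include refits that left out a library of neither group compared or changed only the low-count filter. The share kept is therefore no measure of robustness. With library totals, Lo19S against control under bortezomib gave 6 of the 10 genes called higher in place of 2, where 33.4% of all genes were called higher in place of 22.0%, and NPLOC4, NSFL1C and ZFAND1 changed sign to 0.084, 0.080 and 0.085. The difference of responses of ZFAND1 became 0.044. With DESeq2 the genes lower with bortezomib in control cells were 0 in place of 1, and fitted on the compared groups alone 2 genes were lower in Lo19S cells under bortezomib in place of 1. Leaving out each library, the genes called lower ranged from 0 to 1 for Lo19S against control under DMSO, from 0 to 1 for bortezomib in control cells and from 1 to 2 for Lo19S against control under bortezomib. ZFAND1 then ranged from -0.042 to 0.065 under DMSO, from -0.076 to 0.017 under bortezomib and from -0.10 to 0.021 for the difference of responses, and FAF2 from -0.0085 to 0.044 under bortezomib. The cause was not tested.

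Deviations of same-numbered libraries from their group means correlated between -0.235 and 0.075 over genes, and those of different-numbered libraries between -0.134 and 0.178. Between the Lo19S groups same numbers gave 0.028 to 0.075 and different numbers -0.056 to 0. Between the control groups same numbers gave -0.004 to 0.057 and different numbers -0.066 to 0.048. These values cannot decide whether the replicate numbers pair the libraries weakly. A replicate block changed no call among the 10 genes and gave 3445, 11922, 11349, 6196 and 3889 genes called in the 5 comparisons, in place of 3628, 11976, 11408, 6349 and 4094. Depth limits ZFAND2B most, with 47 counts in its lowest library.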
